A study of Mus musculus with 36 samples.

Results

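Homologous recombination and the Fanconi pathway were followed in the lungs of mice exposed to crude oil, dispersants or both, through 9 genes chosen by name, with earlier results of these data known: Rad51ap1, Rad51c, Brca2, Brca1, Bard1, Fancd2, Fanci, Eme1 and Exo1. All 9 were listed in the female table, among 18116 uniquely named genes, and in the male table, among 18291. The left lung of 36 wild-type C57BL/6 mice, 8 weeks old at the first dose, was sequenced, with 3 female and 3 male mice in each of 6 groups: saline (the control), oil (BP crude oil), 9500 (the dispersant Corexit 9500), 9527 (the dispersant Corexit 9527), 9500+oil and 9527+oil. Every mouse was dosed into the airway on days 0, 7 and 13 and killed on day 14, and for the treated mice the labels give the dose as 0.1 of the accommodated fraction. By the study's methods the agents were mixed into saline, and the separated saline phase was taken for oil alone, while every mixture with dispersant was used whole. The labels call the route intratracheal instillation and the study's methods call it oropharyngeal aspiration. Female and male mice were treated separately, so sex and the separate treatment cannot be told apart, and each table was therefore tested on its own.

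Homologous recombination repairs a DNA double-strand break by copying the intact sister chromatid. The broken ends are first cut back by nucleases to leave single strands, which then invade the intact copy with the help of BRCA2 and other mediators, while BRCA1 and BARD1 act together at both stages. The Fanconi pathway unhooks crosslinks between the DNA strands, with FANCD2 and FANCI as its central pair, and hands the resulting break to recombination. Because sister chromatids exist only after replication, many of these genes are expressed in dividing cells, of which the resting adult lung holds few.

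Among the members with a RefSeq promoter, Rad51ap1 is shown because it had one of the highest differences in 9527 mice of both sexes and its window held matches to motifs known from cell cycle genes. The sequence is chr6:126939558-126939707 on the minus strand of GRCm38.p6, 120 bases before to 30 after the RefSeq start, and capitals mark CCAAT and TTCCCGC, both read on the opposite strand:
Rad51ap1: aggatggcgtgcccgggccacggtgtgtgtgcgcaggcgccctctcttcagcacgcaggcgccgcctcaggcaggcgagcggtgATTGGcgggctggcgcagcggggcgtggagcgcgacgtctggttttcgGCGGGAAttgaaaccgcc
Promoter windows of 300 bases (250 before to 50 after the start) were listed for 7 of the 9 members, 8 windows in all since Rad51c had a pair. The E2F-type letters TTCCCGC or TTGGCGC, searched on both strands, were found in 6 of these 8 windows (Rad51ap1, 1 of the Rad51c windows, Brca2, Brca1, Bard1 and Fanci) and in 6.8% of the 32851 promoters listed for all genes, or 10.4% of the 15932 whose gene was in the count tables. TTTGAA, the cell cycle homology region, was found in 2 of the 8 windows (Bard1 and Eme1) against 17.9% of all promoters (12.8% of those of genes in the count tables), and CCAAT in 2 (Rad51ap1 and Brca1) against 37.4% (37%). These matches are letters in a window and not binding sites.

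The libraries held 17501180 to 30011557 counts each, and a level is given here in CPM, the counts of a gene relative to all counts of its library, with the library total scaled by TMM, edgeR's trimmed mean of M-values. Lung markers were detected in every library: Sftpc, the surfactant gene of alveolar type 2 cells, was at 3587 to 16390 CPM in female and 9025 to 15390 CPM in male mice, and Ager, of alveolar type 1 cells, at 178.5 to 2202 CPM and 1664 to 2523 CPM. In 4 female libraries (saline mouse 3, oil mouse 6, 9527 mouse 11 and 9500+oil mouse 14) the mitochondrial genes took 20.7% to 45.1% of the counts, against 6.16% to 11.3% in the other 14 female and 5.27% to 7.68% in the 18 male libraries. The members' tests of 9527 against saline in females are given with and without these libraries.

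The 9 members were among the weakly expressed genes of the lung. Apart from Brca2, a member had between 3 and 310 counts in the female libraries where it was detected and between 4 and 259 in the male libraries, and 3 of 144 female values were 0 (Fancd2 in saline mouse 3 and Eme1 in saline mouse 3 and oil mouse 6). Per kilobase of the longest transcript, the mean levels in male saline mice ran from 0.168 CPM per kilobase for Exo1 to 0.461 CPM per kilobase for Fanci. In the 9527 males the corresponding range was 0.495 to 1.36 CPM per kilobase. In bulk lung, more cells that express a gene and more RNA per cell cannot be told apart.

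Summed over the 8 members other than Brca2, the level was 12.4, 12.4 and 19.3 CPM in the 3 female saline mice and 36.3, 34.4 and 33.3 CPM in the 3 female 9527 mice. In males it was 15.5, 10.2 and 13.5 CPM with saline and 36.5, 45.2 and 21.9 CPM with 9527. The 9527 mice lay above the saline mice in both tables, with no overlap. The female values depend on the scaling in the libraries with a high mitochondrial share: with plain library totals, the 9527 females were at 43.3, 18.3 and 36.8 CPM and saline mouse 3 at 9.43 CPM, and the groups still did not overlap. The summed level in 9500 mice was 26.7, 13.5 and 33.9 CPM in females and 25.8, 25.3 and 14.1 CPM in males, so that 1 mouse of each sex stayed within the range of saline, in females only through saline mouse 3. With oil added to the dispersant, the sums lay closer to saline: 12.2, 9.75 and 14.8 CPM in female and 20, 13.8 and 14.8 CPM in male 9527+oil mice, and 12.5, 22.1 and 11.7 CPM in female and 16.8, 16.2 and 14.3 CPM in male 9500+oil mice. Oil alone gave 13.4, 12.9 and 14.9 CPM in females, within the saline range only through saline mouse 3 and above the other saline mice, and 19.8, 16.9 and 22.6 CPM in males, all above it.

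**Figure D1:**
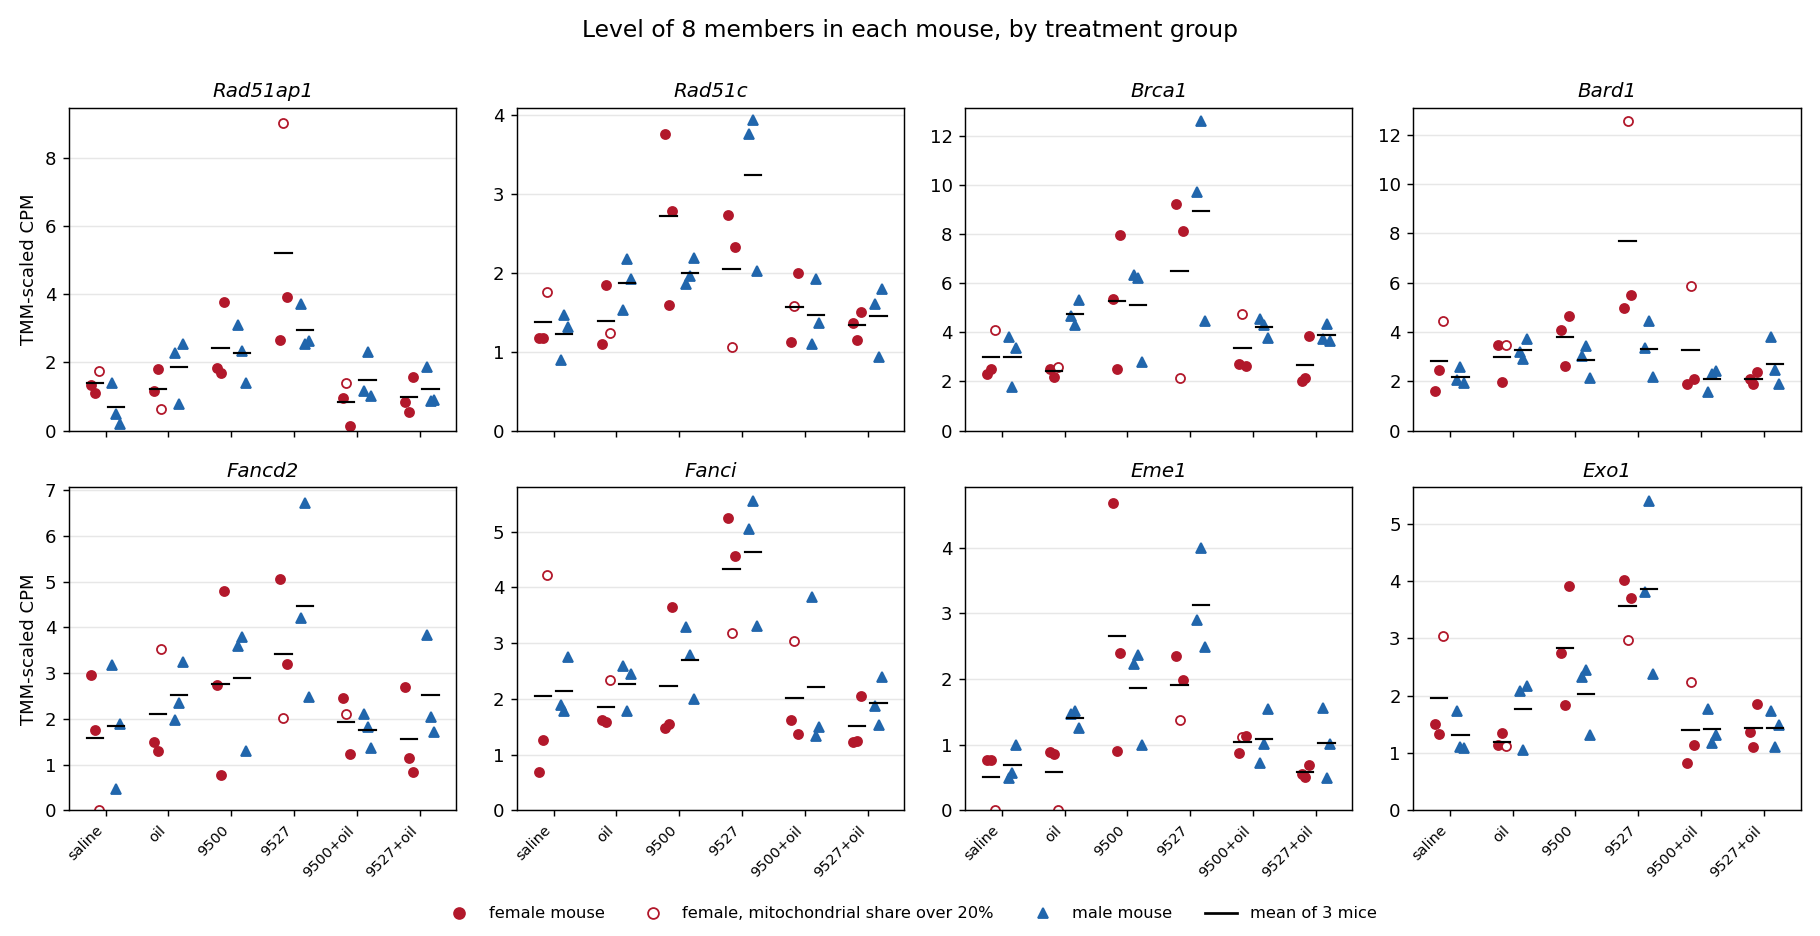
TMM-scaled CPM of 8 members (vertical axes, 1 panel each) in every mouse of the 6 groups (horizontal axes), with female mice as circles, male mice as triangles, hollow circles for the 4 libraries with a mitochondrial share over 20%, and black lines at the mean of 3 mice. The 9527 group had the highest mean for all 8 members in males and for 6 of them in females.

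No member passed the test against saline in any treatment group of either sex. edgeR's quasi-likelihood test with Benjamini-Hochberg adjustment over all genes called 0 of the 8 members tested in each of the 10 comparisons, the 5 of a table sharing their saline mice. Few genes of any kind were called: 0% of all genes in each of the 5 female comparisons, and in males 0.114% with 9527 (17 of 14919), 0.00662% with 9500, 0.00671% with oil, 0.00669% with 9527+oil and 0% with 9500+oil. The lowest adjusted p of a member was 0.0749, for Eme1 in 9527 males. In male 9527 mice, however, the outcome depended on the method, as DESeq2, the tool of the study, called 5 members there (Brca1, Eme1, Exo1, Rad51ap1 and Rad51c) beside 3.98% of all genes and 0 in each of the other 9 comparisons, and edgeR with all 6 groups in 1 fit called 4 (Brca1, Eme1, Exo1 and Rad51c) beside 1.83%. limma voom with sample quality weights called Eme1 alone beside 0.744%, Eme1 was also the member called among the 6 that had no mouse under 10 counts, beside 0.635% of all genes, and without 9527 mouse 12 Brca1 was called beside 1.39%.

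The direction was shared in 9527 mice. All 8 tested members had a positive log2 fold change in males, where 48.3% of all genes did, and all 8 in females, where 54% of all genes did. At an unadjusted p under 0.05, 6 of the 8 were higher in 9527 males (all but Bard1 and Fancd2), against 7.96% of all genes, and 1 in 9527 females (Rad51ap1), against 0.247%. Without the libraries that stand apart, which left 2 saline and 2 9527 females, 7 of the 8 were higher at that p (all but Fancd2), against 2.97% of all genes, and none passed the adjusted test (lowest adjusted p = 0.318, for Brca1). The median log2 fold change of the 8 members was 1.48 in males and 1.11 in females, beside medians of -0.01 and 0.03 over all genes.

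**Figure D2:**
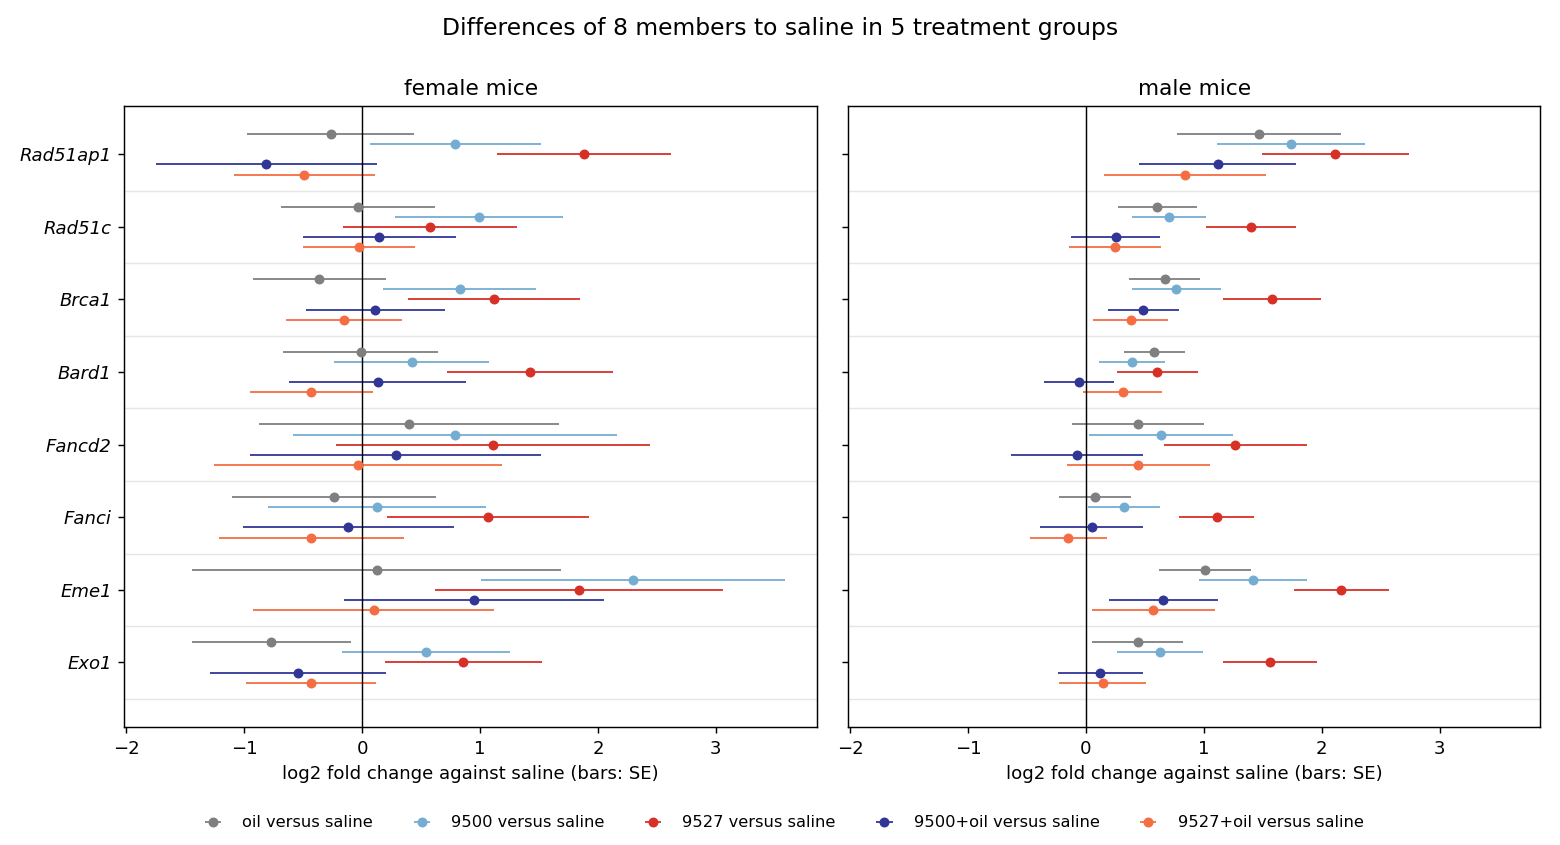
Log2 fold change against saline (horizontal axes, with bars for the SE) of 8 members in the 5 treatment groups, for female mice (left) and male mice (right). The 9527 values of all 8 members lie above 0 in both panels, and the SEs of the female fits are wider than those of the male fits for every member in 9527.

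Among the mediators of strand invasion, Rad51ap1 encodes a protein that stimulates the pairing of the strands. The study had picked it and Bard1 for PCR from these same samples, so their differences here are not independent evidence. In males its level was 1.39, 0.472 and 0.181 CPM with saline and 3.70, 2.53 and 2.64 CPM with 9527, a log2 fold change of 2.12 (SE 0.62, adjusted p = 0.187). The saline values rested on 28, 9 and 4 counts, and the male log2 fold change ran from 1.67 to 3.18 over the other fits. In females the level of Rad51ap1 was 1.34, 1.12 and 1.76 CPM with saline and 2.65, 9.04 and 3.93 CPM with 9527, a log2 fold change of 1.88 (SE 0.74, adjusted p = 1). The groups did not overlap in either sex, and the highest value, 9.04 CPM in female mouse 11, came from a library with a high mitochondrial share. Without those libraries the female log2 fold change was 1.43 (SE 0.41). In 9500 males, at 3.10, 2.33 and 1.40 CPM, Rad51ap1 also lay above every saline mouse, although its lowest value was level with the highest saline value.

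Rad51c encodes another mediator, which acts on the single strand. In males it was at 0.895, 1.47 and 1.31 CPM with saline and at 3.76, 3.94 and 2.02 CPM with 9527, a log2 fold change of 1.40 (SE 0.38, adjusted p = 0.170). The male groups did not overlap, and neither did saline and oil (1.52, 2.18 and 1.92 CPM) or saline and 9500 (1.86, 1.96 and 2.18 CPM). In females it was at 1.18, 1.18 and 1.76 CPM with saline and at 2.74, 1.06 and 2.33 CPM with 9527, and the groups overlapped through mouse 11. Its female difference, a log2 fold change of 0.57 (SE 0.74), was the lowest of the 8 members and became 1.11 (SE 0.40) without the libraries that stand apart. In females the 9500 group, at 3.77, 1.60 and 2.79 CPM, had the higher mean.

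Brca2 encodes the main mediator, which prepares the single strand for invasion, and it was listed at 0 in 33 of the 36 libraries. The 3 values above 0 were 110 counts in female 9500 mouse 9, 56 counts in female 9527+oil mouse 18 and 43 counts in male 9527+oil mouse 18. A row at 0 in at least as many mice and with as large a highest count was rare, at 0.0938% of the female rows and 0.0273% of the male rows. Brca2 passed the filter on low counts in no comparison within a table, and its zeros stood beside detected levels of its partner Palb2, which links BRCA1 to BRCA2. Palb2 was at 2.39, 1.94 and 1.67 CPM in saline males and 4.51, 5.84 and 2.38 CPM in 9527 males, where mouse 12 lay just below the highest saline mouse. A value of 0 in a table made by transcript quantification can be a failed estimate, so no level or fold is given for Brca2.

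Brca1 encodes the ubiquitin ligase that sets the choice of repair by recombination, and Bard1 its obligate partner. Brca1 in males was at 3.83, 1.78 and 3.34 CPM with saline and at 9.71, 12.6 and 4.45 CPM with 9527, a log2 fold change of 1.58 (SE 0.42, adjusted p = 0.165). The male groups did not overlap, and mouse 12 was the lowest of the 9527 mice. In females Brca1 was at 2.31, 2.51 and 4.10 CPM with saline and at 9.23, 2.13 and 8.12 CPM with 9527, a log2 fold change of 1.12 (SE 0.73, adjusted p = 1). Here mouse 11 lay below all saline mice and the other 9527 mice lay far above them, so that the female log2 fold change became 1.85 (SE 0.28) when the libraries that stand apart were left out.

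Bard1 in males was at 2.04, 2.57 and 1.94 CPM with saline and at 3.35, 4.43 and 2.17 CPM with 9527, which overlapped, and its log2 fold change of 0.61 (SE 0.34, adjusted p = 0.485) was the lowest of the 8 members. Female Bard1 was at 1.62, 2.45 and 4.45 CPM with saline and at 4.97, 12.6 and 5.50 CPM with 9527, with no overlap and a log2 fold change of 1.42 (SE 0.71, adjusted p = 1). The 12.6 CPM again belonged to mouse 11, in which Brca1 was at 2.13 CPM, and without the libraries that stand apart the female value was 1.36 (SE 0.35). The difference between the sexes, a log2 fold change of -0.83 (SE 0.74, males minus females), did not pass the test of the interaction.

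Fancd2 and Fanci encode the pair that is ubiquitinated and clamped on DNA at a crosslink. Fancd2 was scattered in males, at 3.18, 0.472 and 1.90 CPM with saline and 4.21, 6.72 and 2.48 CPM with 9527, and the groups overlapped (log2 fold change 1.27, SE 0.61, adjusted p = 0.405). Female mice were at 2.96, 1.77 and 0 CPM with saline and at 5.06, 2.02 and 3.20 CPM with 9527, and the log2 fold change of 1.11 (SE 1.33) became 0.82 (SE 0.42) without the libraries that stand apart. Fanci in males was at 1.89, 1.78 and 2.75 CPM with saline and at 5.06, 5.55 and 3.31 CPM with 9527, with no overlap and a log2 fold change of 1.11 (SE 0.32, adjusted p = 0.179). Its 9527 males also lay above every 9500 male, the nearest of them narrowly (3.30, 2.78 and 2.00 CPM).

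In females the value of Fanci rested largely on saline mouse 3. The saline mice were at 0.690, 1.27 and 4.22 CPM and the 9527 mice at 5.24, 3.19 and 4.56 CPM, and the 4.22 CPM came from saline mouse 3, with a high mitochondrial share. The log2 fold change was 1.06 (SE 0.86) with all 6 mice, 2.14 without saline mouse 3 alone, and 2.31 (SE 0.42) without that mouse and 9527 mouse 11. Among the members, this was the largest move on leaving those libraries out.

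**Figure D3:**
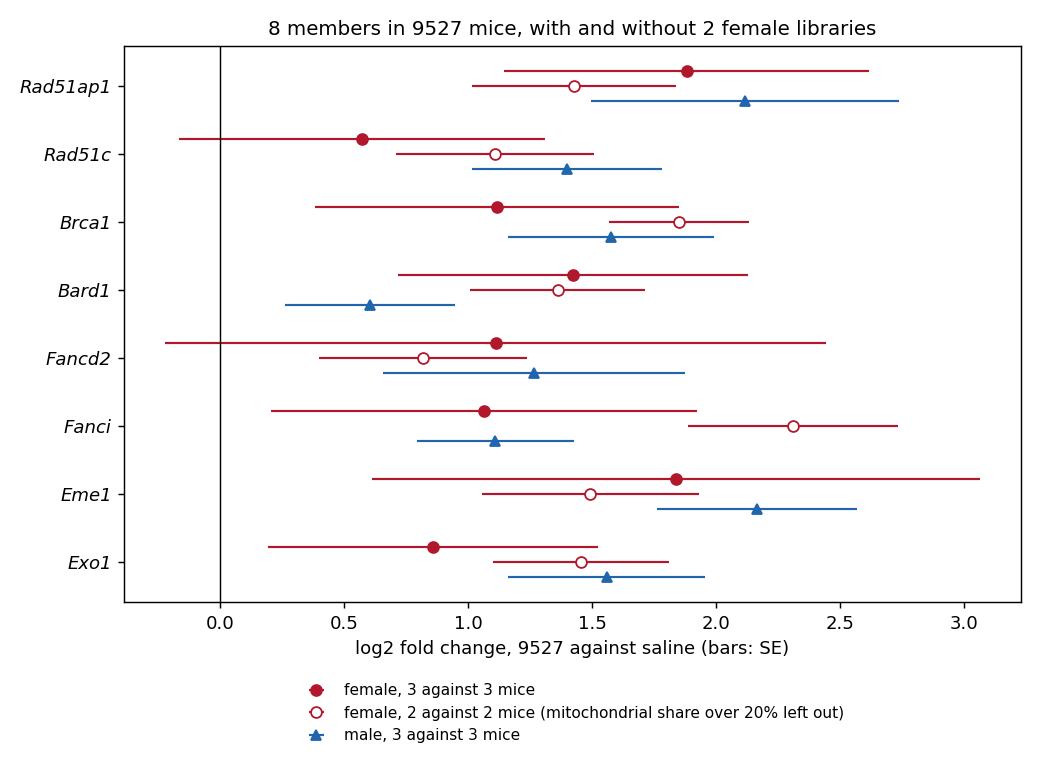
Log2 fold change of 8 members in 9527 against saline (horizontal axis, bars for the SE), for female mice with all 3 mice per group (filled circles), for female mice without saline mouse 3 and 9527 mouse 11 (hollow circles), and for male mice (triangles). Every point lies above 0, and the hollow circles run from 0.82 for Fancd2 to 2.31 for Fanci.

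Eme1 encodes a subunit of the MUS81 endonuclease, which cuts branched recombination intermediates. In males it was at 0.497, 0.577 and 0.993 CPM with saline and at 2.90, 3.99 and 2.48 CPM with 9527, a log2 fold change of 2.17 (SE 0.40, adjusted p = 0.0749). Over the other fits of that comparison its adjusted p ran from 0.0006 to 0.290 and its log2 fold change from 1.95 to 2.54. Eme1 was also the member with the most separations, since oil males (1.47, 1.51 and 1.26 CPM) and 9500 males (2.23, 2.37 and 1.00 CPM) lay above every saline male too. In females it was at 0.771, 0.774 and 0 CPM with saline, at 2.35, 1.38 and 1.99 CPM with 9527 and at 4.68, 0.900 and 2.39 CPM with 9500, with no overlap between either dispersant and saline. The female log2 fold changes were 1.84 (SE 1.23) with 9527 and 2.30 (SE 1.29) with 9500, or 1.49 (SE 0.44) and 1.77 (SE 0.82) without the libraries that stand apart, 1 of which held the saline zero.

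Exo1 encodes an exonuclease of end resection and of mismatch repair. In males it was at 1.74, 1.10 and 1.08 CPM with saline and at 3.81, 5.40 and 2.38 CPM with 9527, with no overlap and a log2 fold change of 1.56 (SE 0.40, adjusted p = 0.155). Female levels were 1.50, 1.33 and 3.05 CPM with saline and 4.02, 2.98 and 3.71 CPM with 9527, a log2 fold change of 0.86 (SE 0.67, adjusted p = 1). The female groups overlapped only through saline mouse 3 and 9527 mouse 11, both with a high mitochondrial share, and the log2 fold change was 1.46 (SE 0.36) without them.

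Among the 5 treatments, the median log2 fold change of the members was highest with 9527, at 1.48 in males and 1.11 in females. In females, Eme1 and Rad51c instead had their highest group means with 9500 (2.658 and 2.715 CPM, against 1.909 and 2.043 CPM with 9527). The direct comparison of 9527 with 9500, given below, called no member in either sex. With 9500, all 8 members had positive log2 fold changes in both tables, with medians of 0.67 in males and 0.79 in females. Of these, Eme1 (1.42, SE 0.46) and Rad51ap1 (1.74, SE 0.63) were higher in males at an unadjusted p under 0.05, against 4% of all genes, and 0 members in females, against 0.155%. In the same 9500 males, 3 of 4 erythroid markers were lower at that p (3219 to 4904 CPM against 4712 to 8022 CPM with saline), and 2 of 5 macrophage markers (290 to 481 CPM against 283 to 306 CPM) and 2 of 4 fibroblast markers (2326 to 2921 CPM against 2117 to 2394 CPM) were higher. With limma voom and sample quality weights, 5 of the 8 were higher at that p in 9500 females, against 5.11% of all genes. With oil, all 8 were positive in males, with a median of 0.59, and Eme1 (1.01, SE 0.39) reached that p, against 5.75% of all genes. In these oil males all 5 macrophage markers were also higher at that p, with a summed level of 445 to 631 CPM against 283 to 306 CPM with saline. So were 3 of 5 neutrophil markers (132 to 439 CPM against 118 to 148 CPM) and 2 of 4 fibroblast markers (2410 to 2717 CPM). All 15 proliferation genes, described below, were positive in 9500 and in oil males, 11 of them higher at that p in each, with medians of 0.61 and 0.58. In females all 15 were positive with 9500 (median 0.65) and 8 with oil (median 0.00), 0 at that p in either. The part of the cell types or of cell division in the members' values with 9500 or oil was not tested. In oil females the median of the members was -0.14, with 2 members above 0 and 0 at that p, against 0.0472% of all genes. The female oil median turned to 0.23 without the libraries that stand apart.

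For the mixtures, the medians of the members were 0.19 in males and 0.12 in females for 9500+oil and 0.35 in males and -0.29 in females for 9527+oil. At an unadjusted p under 0.05, 0 members were higher in these 4 comparisons, where 5.19%, 0.0135%, 3.54% and 0.242% of all genes were. The largest value was that of Rad51ap1 in 9500+oil males, 1.12 (SE 0.66, adjusted p = 0.612), from 1.15, 2.30 and 1.00 CPM, which overlapped with saline. Without the libraries that stand apart, the female medians were 0.06 for 9500+oil and 0.04 for 9527+oil. In 9527+oil females 5 of the 8 members were then positive, in place of 1.

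Counted mouse by mouse, every 9527 mouse lay above every saline mouse for 6 of the 8 members in males, where 10.7% of all genes did, and for 3 in females (Rad51ap1, Bard1 and Eme1), against 2.85%. The number was 4 in oil males (Rad51c, Brca1, Bard1 and Eme1), against 7.42%, and 3 in 9500 males (Rad51ap1, Rad51c and Eme1), against 6.39%. In 9500 and in 9500+oil females it was 1 each (Eme1), against 3.56% and 1.51%. It was 0 in oil females (2.89%), in 9527+oil females (10.7%), in 9500+oil males (7.86%) and in 9527+oil males (5.92%). Ordered by group mean, most neighbouring groups could not be separated: 37 of 40 neighbouring pairs overlapped in females and 38 of 40 in males, with the step from 9527 down to the next group free of overlap for Fanci and Eme1 in males and for Bard1 and Eme1 in females.

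Each mixture with oil was also compared with its dispersant alone, a comparison chosen after the group means had been seen. All 8 members were lower in 9527+oil than in 9527, with a median log2 fold change of -1.23 in males and -1.41 in females. At an unadjusted p under 0.05, 6 of the 8 were lower in males (all but Bard1 and Fancd2), against 6.44% of all genes, and 5 in females (Rad51ap1, Bard1, Fanci, Eme1 and Exo1), against 4.68%, or all 8 against 9.45% without the libraries that stand apart. None passed the adjusted test, in which 0.0134% of all genes were called in males and 0% in females. The lowest adjusted p was 0.324 in males and 0.555 in females, and 0.0582 in females without the libraries that stand apart. DESeq2 called Fanci in males beside 1.83% of all genes and Bard1, Fanci, Eme1 and Exo1 in females beside 1.18%. Neutrophil markers also stood differently in these males: against saline, all 5 were positive in 9527+oil (4 higher at an unadjusted p under 0.05, with a median log2 fold change of 1.55) and 1 of the 4 tested was in 9527 (0 at that p, with a median of -0.40). Their summed level was 80.8 to 682 CPM in 9527+oil males and 42.7 to 125 CPM in 9527 males. Summed macrophage markers were lower in 9527+oil than in 9527 without overlap, at 260 to 295 CPM against 396 to 506 CPM in females and 376 to 393 CPM against 430 to 515 CPM in males, and so were fibroblast markers, at 1453 to 2008 CPM against 2068 to 2793 CPM and 2073 to 2252 CPM against 2803 to 3232 CPM. Endothelial markers were higher without overlap, at 3178 to 3656 CPM against 1986 to 2317 CPM in females and 3303 to 3430 CPM against 2833 to 2940 CPM in males. The summed level of 15 proliferation genes, described below, was also lower without overlap, at 249 to 307 CPM against 564 to 629 CPM in females. In males it was 281 to 339 CPM against 402 to 795 CPM. The part of these cell types or of cell division in the members' differences between 9527+oil and 9527 was not tested.

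Rad51ap1 in females had a log2 fold change of -2.37 (SE 0.66), or -1.71 (SE 0.45) without the libraries that stand apart, from 2.65, 9.04 and 3.93 CPM with 9527 to 0.845, 0.556 and 1.58 CPM with 9527+oil. Eme1 in males had one of -1.60 (SE 0.45), from 2.90, 3.99 and 2.48 CPM to 1.57, 0.495 and 1.02 CPM. The groups did not overlap in either case. For 9500+oil against 9500 all 8 members were again lower, with medians of -0.48 in males and -0.74 in females, but 0 reached an unadjusted p under 0.05, against 2.21% and 0.582% of all genes, and edgeR called 0% of all genes, and DESeq2 0 members, in either table. These comparisons and those with saline share their 9527 and 9500 mice, so that a high dispersant group gives both at once.

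**Figure D4:**
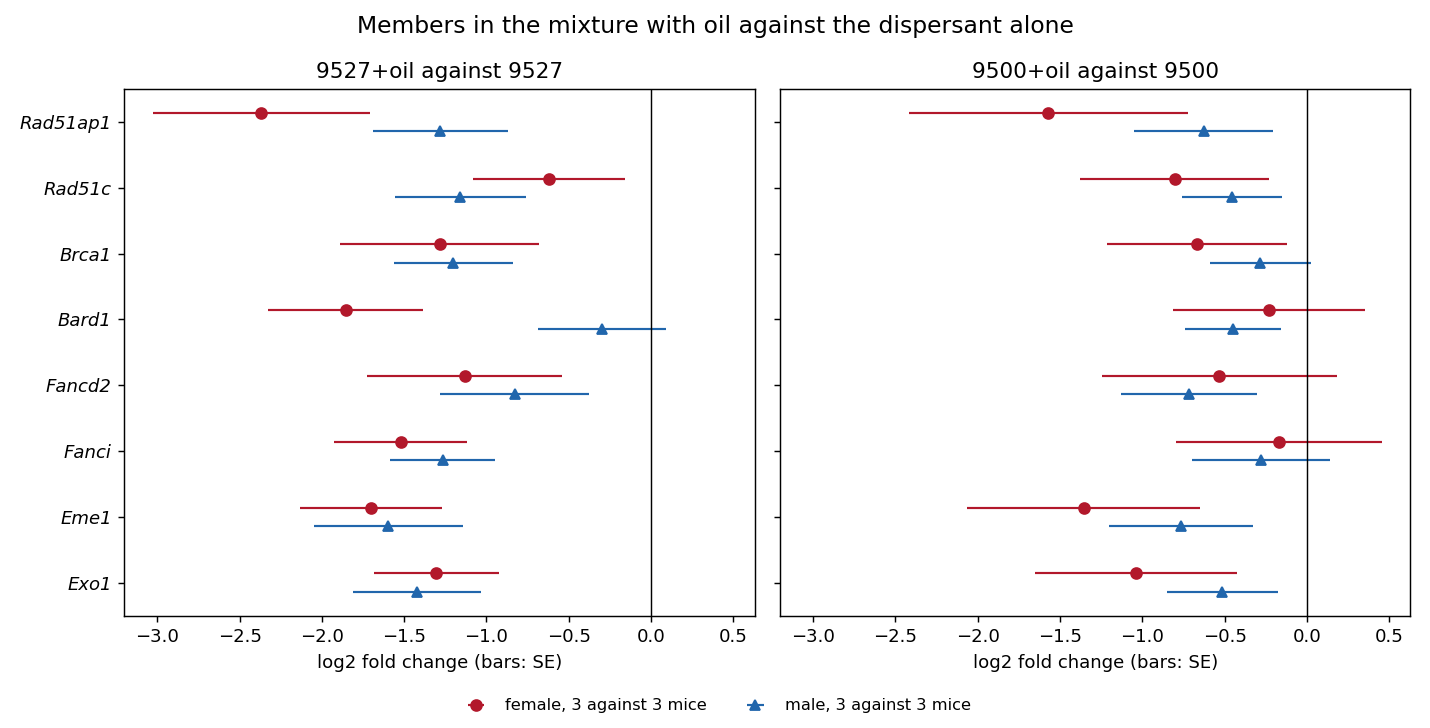
Log2 fold change of 8 members (horizontal axes, bars for the SE) in 9527+oil against 9527 (left) and in 9500+oil against 9500 (right), with female mice as circles and male mice as triangles. All values lie below 0, between -0.30 and -2.37 on the left and between -0.17 and -1.57 on the right.

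Both dispersants were compared directly as well. In males all 8 members were higher with 9527 than with 9500, with a median log2 fold change of 0.72, and Fanci (0.79, SE 0.30) and Exo1 (0.93, SE 0.38) reached an unadjusted p under 0.05, against 2.49% of all genes. In females 6 of the 8 were higher, with a median of 0.32, while Eme1 (-0.47, SE 0.74) and Rad51c (-0.40, SE 0.66) were lower. edgeR called 0% of all genes in either table, DESeq2 called 0 members, and the adjusted p of the members was 0.883 or above in both. The SE of the female values ran from 0.54 to 0.77, so that small differences between the dispersants could not have been detected.

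The test of whether a treatment's difference to saline differed between the sexes called 0 of the 8 members in each of the 5 treatments, and 0% of all genes. At an unadjusted p under 0.05 it had 0 members, against 1.65% of all genes for oil, 0.726% for 9500, 0.352% for 9527, 0.509% for 9500+oil and 2.39% for 9527+oil. The median of the members' differences (males minus females) was 0.74 for oil, 0.51 for 9527+oil, 0.30 for 9527, 0.02 for 9500+oil and -0.04 for 9500. For 9527, Bard1 (-0.83, SE 0.74) and Rad51c (0.81, SE 0.70) differed in opposite directions. Without the libraries that stand apart these became -0.76 (SE 0.48) and 0.29 (SE 0.54), and Fanci, at -1.20 (SE 0.50), was then the 1 member at an unadjusted p under 0.05, against 2.81% of all genes. For oil, all 8 were more positive in males with all mice, and 7 without those libraries, where Fanci was at -0.62 (SE 0.52).

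Most pairs of members had a positive correlation within groups in both tables, more weakly in females when all mice were used. With each group's mean removed from the log2 CPM, the 28 pairs of the 8 members had a median Pearson r of 0.38 over the 18 males, with 22 pairs above 0. The highest was 0.85, for Brca1 and Fancd2, and the lowest -0.12, for Rad51ap1 and Rad51c. In females the median r was 0.11 over 18 mice, with 18 of 28 pairs above 0 and a lowest r of -0.51, for Fanci and Eme1, and it was 0.48 over the 14 without the libraries that stand apart, with 27 of 28 pairs above 0 in the latter. These values are descriptions, since the points share their library and its scaling, and no value for other genes is given beside them.

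A list of 61 further recombination and Fanconi genes, of which 60 were tested, was set beside the members. It was filled by role, but it, the members and the lists below were all chosen with earlier results of these data known. The members' higher values partly restate their choice, and the list is not an independent comparison. In 9527 males 44 of the 60 had a positive log2 fold change, 14 were higher and 1 lower at an unadjusted p under 0.05 (7.96% of all genes were higher), and 0 passed the adjusted test, with a median of 0.19. In 9527 females 41 were positive, 1 was higher at that p, against 0.247% of all genes (11 without the libraries that stand apart, against 2.97%), 0 passed, and the median was 0.18. By role, junction processing (0.01, 2 of 8) and the downstream Fanconi factors (0.00, 2 of 9 higher and 1 lower) had the lowest male medians.

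Rad54l, a motor protein of strand invasion, had log2 fold changes of 1.25 (SE 0.34) in males and 1.84 (SE 0.90) in females. Mad2l2, a Fanconi and translesion factor that counters resection, had a log2 fold change of 0.65 (SE 0.13, adjusted p = 0.0999) in males and 0.53 (SE 0.42) in females, Topbp1, an activator of the ATR checkpoint kinase, 0.49 (SE 0.20) and 0.55 (SE 0.30), and Palb2 1.09 (SE 0.37) and 0.25 (SE 0.66).

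Genes of the alternative route, end joining, which seals broken ends without a template and does not need replication, were set beside them. Of its 9 genes, 5 were positive in 9527 males (2 higher at an unadjusted p under 0.05, against 7.96% of all genes) and 4 in 9527 females (0 at that p), with medians of 0.07 and -0.05 and 0 passing the adjusted test. Proliferation genes, in contrast, had values close to those of the members: all 15 had positive log2 fold changes in 9527 mice of both sexes, 15 in males and 4 in females (12 without the libraries that stand apart) at an unadjusted p under 0.05, with medians of 1.12 and 0.95 and 0 passing the adjusted test. Top2a, the topoisomerase of dividing cells, had log2 fold changes of 1.76 (SE 0.32) in males and 1.44 (SE 0.33) in females, Mki67, the standard proliferation marker, 1.64 (SE 0.29) and 1.01 (SE 0.54), and Pcna, the sliding clamp of replication, 0.62 (SE 0.17) and 0.40 (SE 0.39).

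**Figure D5:**
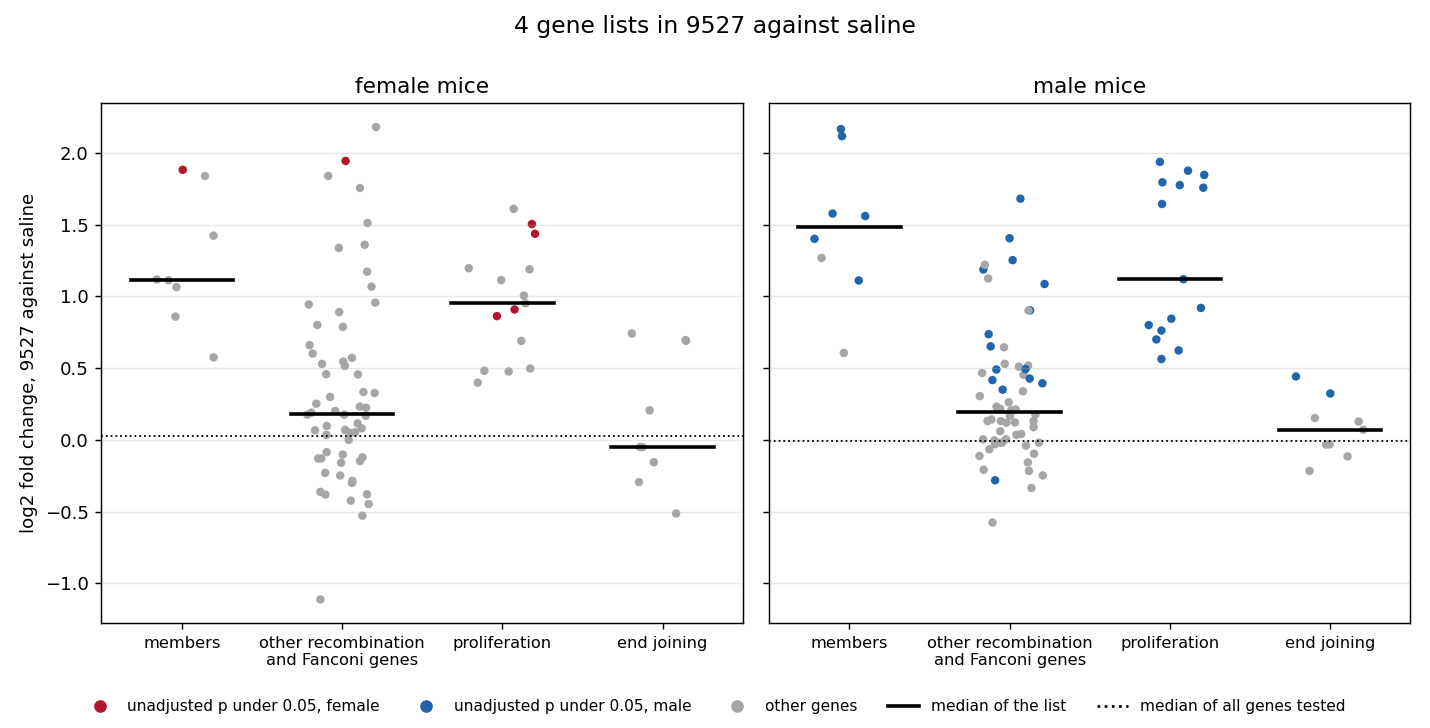
Log2 fold change in 9527 against saline (vertical axis) of each tested gene of 4 lists, in female (left) and male mice (right), with coloured points for an unadjusted p under 0.05, black lines for the median of a list and dotted lines for the median of all genes tested. The medians of the members (1.11 and 1.48) and of the proliferation genes (0.95 and 1.12) lie above those of the other recombination and Fanconi genes (0.18 and 0.19) and of end joining (-0.05 and 0.07).

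The genes nearest in pattern were picked by their correlation with the members, so its size follows from that choice, and the group means were not removed. Those whose log2 CPM was most like the members' mean pattern over the 18 mice of each table, among 12667 genes compared, were Cep55 (r of 0.92 in females and 0.93 in males), Cdk1 (0.91 and 0.95), Prc1 (0.91 and 0.95), Lig1 (0.89 and 0.96) and Kif2c (0.89 and 0.91). The summed level of the 8 members was 5.56% to 5.91% of that of the 15 proliferation genes in 9527 females and 5.45% to 6.21% in 9527 males, above the 4.04% to 5.17% of saline females and 4.14% to 5.05% of saline males. This was not particular to 9527, since the share reached 5.56% in 9500 females, 5.67% in 9500 males and 5.9% in 9527+oil males. The part of cell division in the members' differences was not tested.

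Markers of other cell types also differed between these mice. In 9527 males all 5 macrophage markers had positive log2 fold changes, 4 of them at an unadjusted p under 0.05, and their summed level was 430 to 515 CPM against 283 to 306 CPM with saline. Of these, Cd68, a lysosomal protein of macrophages, passed the adjusted test, with a log2 fold change of 0.83 (SE 0.11, adjusted p = 0.0468). In 9527 females 4 of 5 were positive, 0 reached that p, and the summed level was 396 to 506 CPM against 310 to 467 CPM. Without the libraries that stand apart these levels were 396 to 469 CPM against 310 to 362 CPM, with no overlap, and 2 of the 5 were higher at that p. Fibroblast markers were at 2803 to 3232 CPM in 9527 males and 2117 to 2394 CPM in saline males (3 of 4 higher at that p), and at 2068 to 2793 CPM against 1404 to 1929 CPM in females (0 at that p). The 3 higher in males were the collagen genes Col1a1, Col1a2 and Col3a1. Pdgfra was lower, at a log2 fold change of -0.34 (SE 0.19) in males and -0.385 (SE 0.31) in females. Male erythroid markers were at 1685 to 3782 CPM with 9527 and 4712 to 8022 CPM with saline (3 of 4 lower at that p). Endothelial markers were at 2833 to 2940 CPM in 9527 males and 3365 to 3849 CPM in saline males, with all 4 lower and 3 of them at that p, and all 4 were also lower in females, 0 at that p, at 1986 to 2317 CPM against 1853 to 3200 CPM, or 2304 to 2317 CPM against 2760 to 3200 CPM without the libraries that stand apart, with 1 at that p. Club and ciliated cell markers were all 4 lower in both sexes, at 14880 to 18140 CPM against 19750 to 24910 CPM in males, with 1 at that p, and at 9389 to 15430 CPM against 7796 to 19760 CPM in females, with 0. Without the libraries that stand apart the female levels were 12100 to 15430 CPM against 17670 to 19760 CPM, with 2 at that p. The part of these cell types in the members' differences was not tested.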

How the data were processed

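Expected counts per gene were deposited in a female and a male table of 18 libraries each. The authors made them with Salmon against the GRCm38 cDNA set and tximport, after stranded mRNA libraries, and all values were whole numbers; versions are not given in the sources used here. In each of them, 4 rows shared a name and were dropped (0.0103% and 0.0128% of counts). Within a table, 3 treated mice were compared with 3 saline mice by edgeR 4.0.16 (TMM, filterByExpr, quasi-likelihood F-test, Benjamini-Hochberg adjustment over all genes, threshold 0.05). SE is the log2 fold change over the root of F. The sex difference was the interaction term over both tables. The study used DESeq2, an alternative here (1.42.0), beside limma 3.58.1 voom in R 4.3.3. The fits were tested on simulated data with a fixed dispersion, with changes set only in genes of higher mean count than many member values. The simulation left out the female libraries with a high mitochondrial share, so it does not cover those fits.

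The members and gene lists were chosen with earlier results of these data known. All 9 members were named; of the other pathway genes, the 3 with the smallest p in 9527 per table and Palb2, leaving out a gene that is not reported here; and the 5 genes most like the members. Log2 CPM used a prior count of 2, and genes under a mean of 1 were not compared for likeness. Comparisons between treated groups were added after seeing the data. Promoters come from RefSeq, annotation from GENCODE. The labels state no more than separate mice per group, so p-values measure the spread between these mice. Intervals from counts cover counting error only, and 24 rows per table carry dates for names and were left as they were.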

Additional observations from a re-analysis of the deposited data

How the results depend on the processing

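In 9527 males, 0 members were called by edgeR on the 2 groups, 5 by DESeq2, 4 with all 6 groups in 1 fit, 1 by limma voom with sample quality weights, 1 with at least 10 counts in every mouse, and 0 to 1 with 1 mouse left out (1, Brca1, without 9527 mouse 12). In 9527+oil against 9527, DESeq2 called 4 members in females and 1 in males. The median log2 fold change of the members moved by more than the spread between mice in oil females without the libraries that stand apart (0.23), in 9500+oil females without mouse 14 (-0.292, in a range of -0.292 to 0.422 with 1 mouse left out), in 9500+oil males without saline mouse 1 (0.422, in a range of 0.154 to 0.422) and in 9527+oil males without mouse 16 (0.074, in a range of 0.074 to 0.479). Fanci in 9500 females, at a log2 fold change of 0.13, ran from -0.429 to 1.175 with 1 mouse left out and was negative without saline mouse 1, saline mouse 2 or 9500 mouse 9. The other 182 medians stayed within that spread and the other 179 counts of called members did not change; the test of the sex difference called 0 members in all 95 alternatives. The number of members at an unadjusted p under 0.05 rose in 19 and fell in 9 of the alternatives, most widely in females, where limma voom with weights gave 7 in 9527 (5.97% of all genes were higher at that p) and 5 in 9500 (5.11%), in place of 1 and 0. The mean summed level of 9527 females moved from 34.7 to 32.8 CPM with plain library totals. The median in 9527 ran from 1.24 to 1.81 in males and from 0.84 to 1.39 in females with 1 mouse left out. The cause of these changes was not tested. With 3 to 310 counts per member and library, the depth limits each value, and Brca2 was tested only where no filter was set and in fits of the sex difference for 9527+oil, and was called in none. No paired analysis was possible because the groups compared within a table share no mouse number and nothing ties a mouse of one group to a mouse of another.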
